A study of Mus musculus with 32 samples.

Results

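Acute-phase genes code for proteins whose production climbs within hours to days of tissue injury or infection. The liver makes most of them under interleukin 6, interleukin 1 and glucocorticoids, through the transcription factors STAT3, NF-kB and C/EBP, but several are also made at the site of damage, skeletal muscle included. A set of 9 genes, some of this kind and others grouped with them, was followed here through the loss of nerve supply to the calf. They are Lcn2, Serpina3n, Mt1, Mt2, Cebpb, Cebpd, Saa3, Hp and Fkbp5, which are 9 of the 33397 genes in the table. The members were picked by gene symbol, and Lcn2 and Serpina3n were picked because their 1 d level stood above the 0 d level, so for these 2 genes every value that involves 0 d or 1 d is a description with no test.

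RNA was sequenced from gastrocnemius (GAS) muscle of C57BL/6 mice (C57BL/6J in the study's methods, males of 6-8 weeks), at 0 d and 1, 3, 5, 7, 14, 21 or 28 d after injury, which makes 8 groups of 4 samples (32 samples). At the later time points a segment of the left sciatic nerve had been cut out, which removes the motor and sensory supply of the GAS. The labels list sciatic nerve transection for all groups, 0 d included, while the study describes its uninjured comparison as mice that had the same surgery without the cut, so the 0 d group is called 0 d here. No genetic change separates the groups, and a sample is whole muscle, in which fewer cells of a type and less RNA per cell cannot be told apart. Values are in FPKM, the fragments of a gene per kilobase of exon, scaled to the depth of the sample, and samples are named by the letters or numbers of their columns, which are tied to no single animal. That the samples came from separate mice is taken from the labels, and otherwise p-values measure only the spread between samples.

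Recovered depth ran from 14199961 to 17561600 fragments per sample (median 16663163). The extraction text in the labels speaks of retina, but the 6 retina markers looked up, of which 5 were measured, summed to at most 0.222 FPKM in any sample, while the 6 myofibre markers summed to between 20543 and 40721 FPKM. On the first principal component, which held 44.7% of the variance over 13405 genes, 3 d sample a lay at -19.4, away from the other 3 d samples at 0.752 to 6.25 and towards the 1 d samples at -50.6 to -38.6, so the members' results at 3 d are also given without it. Mitochondrially encoded genes took 14.5% to 18.2% of fragments at 0 d and 6.70% to 17.1% afterwards, and the median change of 11943 genes with a mean of at least 1 FPKM was 0.12 on the log2 scale at 1 d, 0.20 at 3 d and between 0.24 and 0.32 from 5 to 28 d. After median-ratio scaling, which sets that median near 0, the share of called genes that were higher went from 71.8% to 46.9% at 1 d and from 68.7% to 49.6% at 3 d, and from between 75.0% and 79.5% to between 44.8% and 47.5% on the later days. Some small changes after 3 d are therefore given under both scalings, and others only as deposited.

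Lcn2, a secreted lipocalin that binds the iron carriers of bacteria and marks inflamed tissue, was close to absent at 0 d, with 0.272, 0.128, 0.350 and 0.432 FPKM. At 1 d it stood at 50.9, 42.2, 39.1 and 34.1 FPKM, and at 3 d at 21.6, 24.7, 9.09 and 14.5. No 1 d or 3 d sample came near the 0 d range, and no 3 d sample reached the lowest 1 d sample. The mean of 41.6 ± 7.06 FPKM at 1 d (SD, n = 4) was 141 times that of 0 d, a ratio that rests on only 5 to 18 fragments per 0 d sample, and the mean at 3 d was 59.2 times that of 0 d.

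From 3 d onwards Lcn2 could be tested, and most of it was gone by 5 d. The 5 d samples held 1.07, 0.911, 1.47 and 1.65 FPKM, and the later means lay between 0.467 and 1.13 FPKM. On log2(FPKM + 1), Lcn2 fell by 2.95 ± 0.19 (SE) from 3 d to 5 d (adjusted p = 5.9e-12 with limma and Benjamini-Hochberg adjustment over 22071 genes), and by 2.82 (adjusted p = 6.2e-11) without 3 d sample a. No later step was called. The means at 5 d and 7 d were 4.31 and 3.81 times that of 0 d, every sample of both days and of 28 d lay above every 0 d sample, and at 14 d and 21 d the ranges overlapped those of 0 d.

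Serpina3n, a secreted serine protease inhibitor whose targets include granzyme B, shared the early rise and kept it for longer. It stood at 6.76, 3.28, 3.14 and 2.75 FPKM at 0 d, at 99.3, 72.0, 118 and 167 FPKM at 1 d and at 77.2, 148, 95.2 and 80.9 FPKM at 3 d. The 1 d and 3 d samples overlapped each other and stood far above those of 0 d. Thereafter the gene came down in steps, with means of 62.1 ± 2.68 FPKM at 5 d and 45.5 ± 7.01 FPKM at 7 d (SD, n = 4 each). At 14 d the mean was 23.4 ± 4.56 FPKM, and the last 2 time points had 17.4 ± 1.71 and 21.7 ± 2.20 FPKM. All 28 samples taken after 0 d lay above the highest 0 d sample, and at 28 d the mean was still 5.45 times that of 0 d.

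Of the steps that could be tested for Serpina3n, the fall from 3 d to 5 d (-0.63 ± 0.22 log2, limma adjusted p = 0.031) and that from 7 d to 14 d (-0.94 ± 0.22, adjusted p = 0.013) were called. The first was lost without 3 d sample b (-0.43, adjusted p = 0.15) and without 5 d samples a, c or d (adjusted p = 0.068, 0.057 and 0.058), and was -0.74 (adjusted p = 0.021) without 3 d sample a. The second was lost without 7 d sample a (adjusted p = 0.054) or 14 d sample a (adjusted p = 0.063). After median-ratio scaling these falls were -0.79 and -0.96 (limma adjusted p = 0.0037 and 0.0058). Across the whole span from 3 d to 28 d the fall was -2.11 ± 0.22 (limma adjusted p = 5.5e-09).

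The courses of the 2 genes were compared in samples that the choice of genes did not use. The per-sample log2 ratio of Serpina3n to Lcn2, each with 1 FPKM added, was 1.79, 2.54, 3.25 and 2.40 at 3 d and 3.67, 3.69, 3.86 and 3.76 at 28 d. Every 28 d sample lay above every 3 d sample, and the means differed by 1.25 (exact permutation test, two-sided, p = 0.0286, which is the smallest that 4 against 4 samples can give). With a sample left out the smallest possible p is 0.0571, and the difference ranged from 1.01 to 1.501. At 5 d the ratio had a mean of 4.81 ± 0.23 (SD, n = 4), the highest of the 8 groups with 1 FPKM added, while the plain ratio of mean FPKM was 48.8 at 5 d and 50.1 at 14 d. In the plot of courses, Lcn2 had 3.06% of its highest mean left at 5 d and Serpina3n 54.5%.

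**Figure D1:**
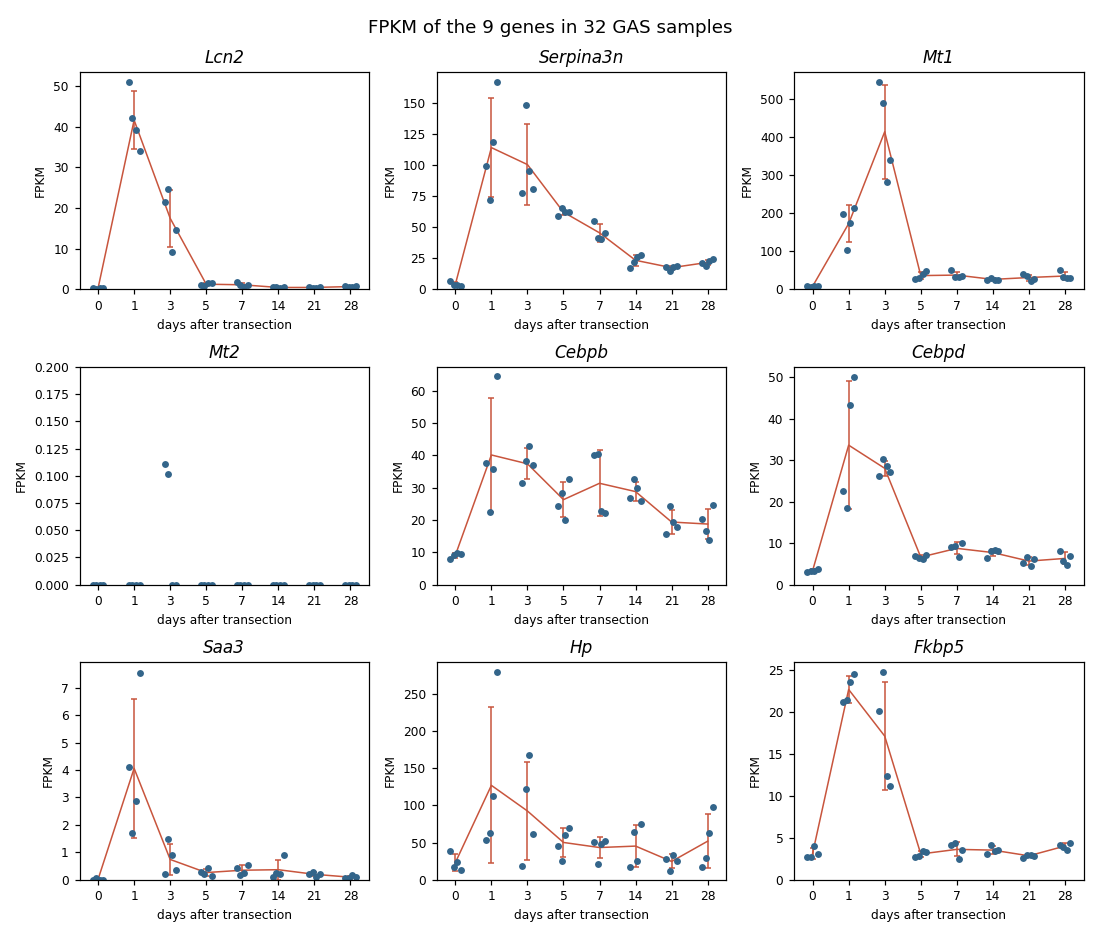
FPKM of each of the 9 genes (vertical axis, from 0, a different scale in each panel) in the 4 samples of each time point (horizontal axis, days); points are samples and the line joins means with SD bars, except for Mt2, where only the samples are drawn. Lcn2, Fkbp5, Cebpd and Mt1 are high at 1 and 3 d and low from 5 d, Saa3 is high at 1 d, Serpina3n comes down more slowly, and Mt2 is at 0 in 30 of 32 samples.

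The promoters of Lcn2 and Serpina3n are shown because these genes rose at the same time and parted later. Lcn2 (ENSMUSG00000026822) lies at chr2:32384633-32388252 on the minus strand and Serpina3n (ENSMUSG00000021091) at chr12:104406729-104414329 on the plus strand (GRCm38, GENCODE release M21), and both are protein-coding. The stretches below are RefSeq sequence of build GRCm38.p6 from the 250 bases before the start that RefSeq gives for each gene, without bases that GENCODE annotates as untranslated exon of the gene. They were searched on both strands for TTGCNNAA (a C/EBP site), TTCNNNGAA (a STAT site), GGG and TTTCC 2 bases apart (an NF-kB site), GNACA and TGTNC 3 bases apart (a glucocorticoid response element) and TGCACNC or TGCGCNC (the core of a metal response element), and capitals mark matches.
Lcn2, chr2:32387798-32387989, minus strand: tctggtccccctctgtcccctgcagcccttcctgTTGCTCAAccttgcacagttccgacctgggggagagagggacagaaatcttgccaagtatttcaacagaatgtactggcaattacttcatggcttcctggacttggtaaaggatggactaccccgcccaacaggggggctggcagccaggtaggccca
Serpina3n, chr12:104406458-104406707, plus strand: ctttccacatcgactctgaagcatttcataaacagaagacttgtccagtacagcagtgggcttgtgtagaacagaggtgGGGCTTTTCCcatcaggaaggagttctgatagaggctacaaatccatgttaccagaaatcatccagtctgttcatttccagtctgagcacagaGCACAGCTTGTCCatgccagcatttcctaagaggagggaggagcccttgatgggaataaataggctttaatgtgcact
The Lcn2 stretch ends where a coding GENCODE transcript begins, but lies inside the gene span given above, since a longer GENCODE transcript starts further upstream and has a coding exon there. It holds 1 C/EBP match, and the Serpina3n stretch holds 1 NF-kB match and 1 glucocorticoid response element match. Among 32851 promoters of 250 bases, 9.56% held the C/EBP letters, 7.02% the STAT letters, 1.41% the NF-kB letters, 0.387% the glucocorticoid response element letters and 21.4% a metal response element core. A match describes letters and is not a site shown to be used.

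The metallothioneins are small proteins, rich in cysteine, that hold zinc and copper and are switched on by metals, by oxidants and by glucocorticoids. Mt1 (ENSMUSG00000031765, chr8:94179082-94180327, plus strand) had the largest tested change on log2(FPKM + 1) among the 9 genes. It stood at 8.02, 6.99, 9.41 and 7.94 FPKM at 0 d, at 200, 104, 174 and 214 FPKM at 1 d and at 545, 491, 282 and 341 FPKM at 3 d. The ranges of the 3 groups did not touch. The change from 0 d was 4.21 ± 0.23 log2 at 1 d (limma adjusted p = 3.9e-14) and 5.47 ± 0.23 at 3 d (adjusted p = 2.0e-17; 5.32 without 3 d sample a). Mt1 was the member called higher at 3 d than at 1 d, by 1.26 ± 0.23 (limma adjusted p = 7.3e-05; 1.11 and adjusted p = 0.00057 without 3 d sample a).

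Mt1 then dropped by 3.47 ± 0.23 log2 between 3 d and 5 d (limma adjusted p = 8.4e-12; 3.32 without 3 d sample a) and stopped short of its 0 d level. Its 20 samples from 5 d to 28 d ran from 22.1 to 50.7 FPKM, all above the highest 0 d sample. It was called higher than 0 d on each of these days, by 1.58 log2 at 14 d (limma adjusted p = 1.5e-06) to 2.07 at 7 d (adjusted p = 1.4e-08), and by 1.22 and 1.72 after median-ratio scaling. No step after 5 d was called.

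Mt2, the neighbouring gene (ENSMUSG00000031762) at chr8:94172664-94173568 (plus strand), was listed at 0 in 30 of 32 samples. The 2 others, 3 d samples a and b, were listed at 0.111 and 0.102 FPKM, each of which is 1 fragment, and the gene was not tested. The planned ratio of Mt2 to Mt1 could therefore not be made. Of the 588 exon bases of Mt2, 432 (73.5%) are also exon bases of Gm45774, an annotated gene on the opposite strand. Gm45774 itself was listed between 0 and 0.101 FPKM at 0 d, between 0.415 and 1.07 at 1 d and between 0.122 and 0.314 at 3 d, and then between 0 and 0.110 at later time points. Its 1 d samples lay above all other samples of the series.

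Of 368 protein-coding genes that shared more than 50% of their exon bases with other genes, 205 (55.7%) had a mean under 0.1 FPKM, as against 3104 of 12223 (25.4%) that shared none and 885 of 5629 (15.7%) that shared up to 50%. The part of exon sharing in the Mt2 values was not tested. The coding sequences of both genes are shown for their likeness to each other. They are GENCODE M21 transcripts, with the cysteine codons in capitals.
Mt1: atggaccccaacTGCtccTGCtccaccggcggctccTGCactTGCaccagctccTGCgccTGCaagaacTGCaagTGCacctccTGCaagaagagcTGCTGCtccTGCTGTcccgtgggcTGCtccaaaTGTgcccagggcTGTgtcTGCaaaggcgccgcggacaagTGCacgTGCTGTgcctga
Mt2: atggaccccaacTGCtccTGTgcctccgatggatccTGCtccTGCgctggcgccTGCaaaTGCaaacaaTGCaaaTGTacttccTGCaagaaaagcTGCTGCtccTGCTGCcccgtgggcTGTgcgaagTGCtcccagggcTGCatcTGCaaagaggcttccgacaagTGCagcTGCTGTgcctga
Each has 186 bases and 20 cysteine codons among 61, and 148 bases (79.6%) are the same at the same position. The longest run of bases that the whole transcripts share is 20, against a read length of 150. How reads were assigned between Mt1 and Mt2 was not tested.

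**Figure D2:**
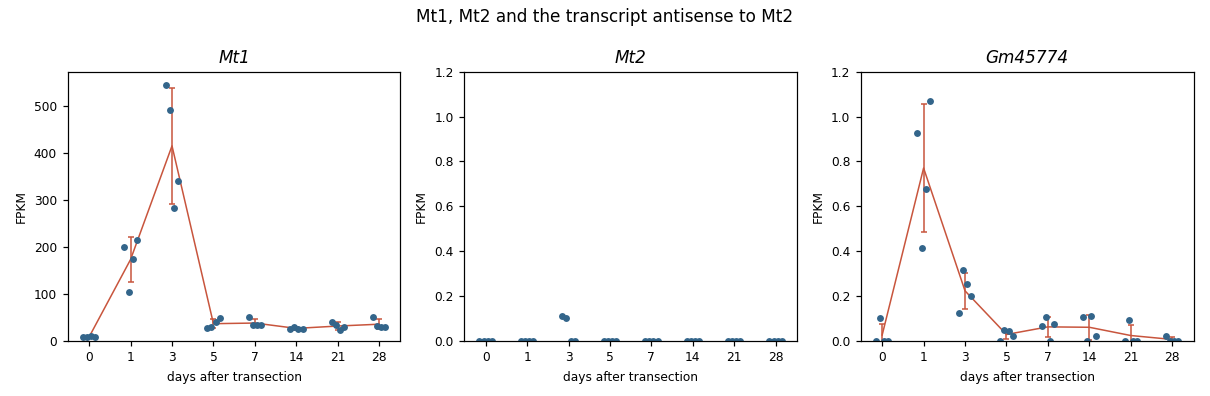
FPKM of Mt1, Mt2 and Gm45774, the gene antisense to Mt2 (vertical axes, each from 0), by day; points are the 4 samples of each time point and lines join means with SD bars, with no line for Mt2. Mt1 peaks at 3 d at 282 to 545 FPKM, Mt2 is at 0 but for 2 samples at 3 d, and Gm45774 peaks at 1 d at 0.415 to 1.07 FPKM.

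The upstream stretch of Mt1, from RefSeq as above, is given because glucocorticoids and metals are its known inducers and both kinds of letters are in it. Its matches are therefore no result.
Mt1, chr8:94178839-94179081, plus strand: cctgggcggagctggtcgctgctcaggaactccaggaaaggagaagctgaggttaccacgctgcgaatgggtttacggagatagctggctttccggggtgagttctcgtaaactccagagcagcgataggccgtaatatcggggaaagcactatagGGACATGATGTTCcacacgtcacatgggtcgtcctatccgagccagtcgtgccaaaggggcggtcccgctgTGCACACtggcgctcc
It held 1 glucocorticoid response element match and 1 metal response element core. Bases after the start that RefSeq gives were not searched, so these counts hold for the stretch alone. Promoters for 7 of the 9 members were found. Over 250 bases, those of Mt2 held 3 metal response element cores and 1 C/EBP match, that of Saa3 held 1 C/EBP match, and those of Cebpb and Fkbp5 held none of the motifs searched.

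Saa3 passed the filter on low values only through samples after 0 d, so it is left out of the counts that follow and described by itself. The 5 other members tested against 0 d, Mt1, Cebpb, Cebpd, Hp and Fkbp5, were all called higher at 1 d, where 6.34% of all genes tested were called higher. The same 5 were called higher at 3 d, where 13.2% of all genes were. From 5 d to 28 d, 3 of the 5 (Mt1, Cebpb and Cebpd) were called higher at each time point, where the share of all genes called higher was, in order of time, 14.9%, 15.4%, 14.6%, 11.8% and 14.2%. After median-ratio scaling Cebpd was not called at 5, 21 and 28 d. None of the 5 was called lower than 0 d at any time point, where the share of all genes called lower was, from 1 d to 28 d in order, 2.49%, 6.03%, 3.86%, 4.1%, 3.83%, 3.93% and 4.1%. These members too were chosen with earlier results of the data known. A call is an adjusted p under 0.05 and a change of at least 1.5-fold.

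Cebpb and Cebpd code for leucine zipper transcription factors that drive many acute-phase promoters. Cebpb (ENSMUSG00000056501, chr2:167688915-167690418, plus strand) stood at 7.98, 9.13, 9.80 and 9.34 FPKM at 0 d, at 37.6, 22.5, 35.9 and 64.6 FPKM at 1 d and at 31.4, 38.3, 43.0 and 37.0 FPKM at 3 d. Its change from 0 d was 1.94 ± 0.23 log2 at 1 d (limma adjusted p = 9.4e-08) and 1.93 at 3 d (adjusted p = 4.0e-08; 2.01 without 3 d sample a). It was the member that kept most of its level, with a mean of 18.7 ± 4.68 FPKM at 28 d (SD, n = 4), 46.7% of its highest mean. All 28 samples after 0 d lay above the highest 0 d sample, and the change at 28 d was 0.95 ± 0.23 (limma adjusted p = 0.0010), or 0.59 (adjusted p = 0.020) after median-ratio scaling.

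Cebpd (ENSMUSG00000071637, chr16:15887286-15891031, plus strand) rose further and came down sooner. It stood at 3.08, 3.31, 3.22 and 3.80 FPKM at 0 d, at 22.5, 18.5, 43.4 and 50.1 FPKM at 1 d, at 26.2, 30.3, 28.5 and 27.1 FPKM at 3 d and at 6.79, 6.49, 6.04 and 7.12 FPKM at 5 d. The 1 d and 3 d samples overlapped each other, and both stood above all samples of the other days. The change from 0 d was 2.88 ± 0.20 log2 at 1 d (limma adjusted p = 3.6e-12) and 2.74 at 3 d (adjusted p = 2.4e-12; 2.77 without 3 d sample a), and the fall from 3 d to 5 d was -1.93 ± 0.20 (adjusted p = 2.7e-08; -1.96 without it). From 5 d the change from 0 d was between 0.60 and 1.15, and its calls at 5 d (0.49, adjusted p = 0.024, under 1.5-fold), 21 d (0.36, adjusted p = 0.10) and 28 d (0.42, adjusted p = 0.056) were lost after median-ratio scaling. The call at 21 d was also lost without 0 d sample 1 or 21 d sample b or d, with changes of 0.54 to 0.57. Cebpb shares 312 of its 1504 exon bases with Tmem189 and Cebpd 562 of 3746 with Spidr, both on the opposite strand, and whether the counting used strand is not given in the sources used here. Tmem189 means were 2.82 FPKM at 0 d and 4.88 at 1 d, and Spidr means 0.427 and 0.760.

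Fkbp5, a co-chaperone of Hsp90 that lowers the hormone affinity of the glucocorticoid receptor and is itself a standard glucocorticoid target, was high at 1 d and 3 d and back in the 0 d range at 5 d (ENSMUSG00000024222, chr17:28399094-28517527, minus strand). It stood at 2.76, 2.65, 4.05 and 3.09 FPKM at 0 d and at 21.2, 21.4, 23.6 and 24.5 FPKM at 1 d, the narrowest 1 d range of the members relative to its mean. The 3 d samples held 20.1, 24.8, 12.4 and 11.2 FPKM, all above 0 d, and the 5 d samples 2.68, 2.81, 3.47 and 3.28, all within the 0 d range. The change from 0 d was 2.53 ± 0.16 log2 at 1 d (limma adjusted p = 8.8e-13) and 2.07 at 3 d (adjusted p = 1.1e-11; 1.98 without 3 d sample a), and -2.09 ± 0.16 from 3 d to 5 d (adjusted p = 1.7e-10; -1.996 without it). From 5 d to 28 d the differences from 0 d were between -0.09 and 0.28 and none was called. Those at 7, 14 and 28 d were above 0 as deposited and below 0 after median-ratio scaling.

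Saa3, a serum amyloid A protein made mainly outside the liver, was at the limit of detection at 0 d (ENSMUSG00000040026, chr7:46711998-46715700, minus strand). It was listed at 0, 0.0514, 0 and 0 FPKM at 0 d, which is 2 fragments in all. At 1 d it stood at 4.11, 1.72, 2.86 and 7.55 FPKM, and at 3 d at 0.225, 1.49, 0.896 and 0.341. The groups did not overlap, although the 3 d values of samples a and d were close to those of later days. The ratio of the 666 fragments at 1 d to the 2 at 0 d, corrected for depth, was 329 (95% exact interval 90.7 to 2723, counting error only), and that at 3 d was 59.9 (16.2 to 499.7). On log2(FPKM + 1) the difference from 0 d was 2.19 at 1 d and 0.72 at 3 d (0.87 without 3 d sample a, 0.53 without sample b). These are given as descriptions, since the gene passed the filter through its high groups. The step from 1 d to 3 d was -1.47 ± 0.23 (-1.32 without 3 d sample a), which is a description as well.

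Hp, haptoglobin, which binds free haemoglobin for uptake by the receptor Cd163, varied widely between samples of a group (ENSMUSG00000031722, chr8:109575128-109579172, minus strand). It stood at 38.1, 17.7, 23.1 and 12.8 FPKM at 0 d, at 52.8, 62.6, 113 and 279 FPKM at 1 d and at 18.7, 122, 168 and 61.0 FPKM at 3 d. All 1 d samples lay above 0 d, while 3 d sample a lay within the 0 d range. The change was 2.20 ± 0.61 log2 at 1 d (limma adjusted p = 0.0062) and 1.68 ± 0.61 at 3 d (adjusted p = 0.027). The 3 d call was 2.29 (adjusted p = 0.0021) without sample a, and was lost without 0 d sample 2 (1.59, adjusted p = 0.061) or 4 (1.45, adjusted p = 0.086) and without 3 d sample b (1.41, adjusted p = 0.093) or c (1.26, adjusted p = 0.12). From 5 d to 28 d the samples ran from 11.5 to 97.7 FPKM, overlapped 0 d at every time point, and no difference was called. The summed level of 6 adipocyte markers ranked the 4 samples as Hp did in 4 of the 8 groups (3, 7, 14 and 28 d). At 14 d these sums were 148, 523, 203 and 606 FPKM in samples a to d, where Hp was 16.6, 63.9, 25.7 and 74.6 FPKM, and at 3 d they were 44.5, 116, 217 and 50.1 FPKM. The part of adipocytes in the Hp values was not tested.

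**Figure D3:**
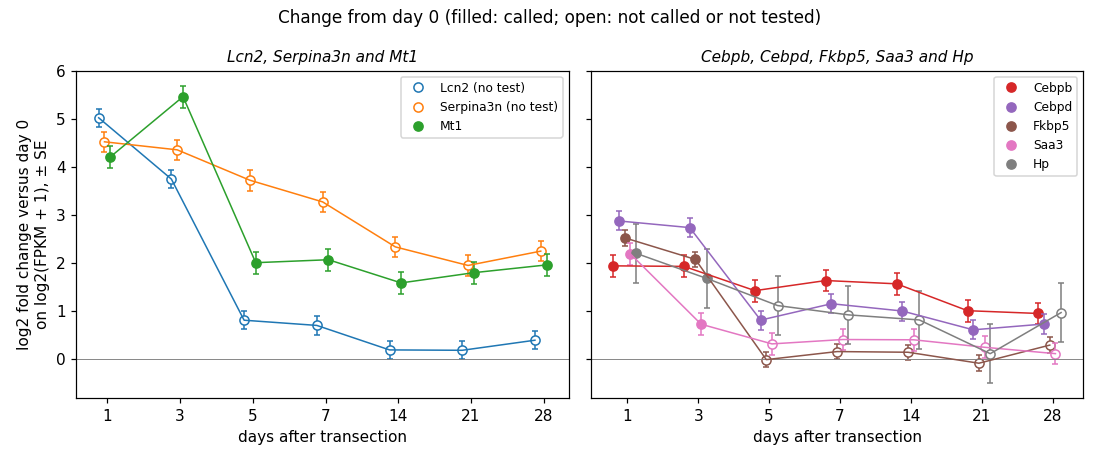
Change from 0 d on the log2(FPKM + 1) scale (vertical axis, with SE bars from the fit of 32 samples) at each later time point (horizontal axis, days) for 8 genes; filled points were called, and open points were not called or, for Lcn2 and Serpina3n, not tested. Mt1 reaches 5.47 at 3 d, Cebpb and Cebpd stay called to 28 d as deposited, and Fkbp5 and Hp are called at 1 and 3 d. After median-ratio scaling the Cebpd calls at 5, 21 and 28 d are lost. Saa3 passed the filter through its high groups, so its filled points are no result.

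The descent was tested from 3 d to 28 d, which uses neither 0 d nor 1 d. Of the 7 members tested beside Saa3, 6 fell and Hp did not pass the test (-0.71, limma adjusted p = 0.41; -1.33 and adjusted p = 0.089 without 3 d sample a), where 4.54% of all genes were called lower and 7.46% higher (62.2% of calls were higher, or 46.4% after median-ratio scaling). The falls were -3.36 for Lcn2, -3.51 for Mt1, -2.11 for Serpina3n, -2.01 for Cebpd, -1.79 for Fkbp5 and -0.98 for Cebpb. Without 3 d sample a the falls were -3.24 for Lcn2, -3.36 for Mt1, -2.22 for Serpina3n, -2.04 for Cebpd, -1.69 for Fkbp5 and -1.06 for Cebpb, all called. From 3 d to 5 d alone 5 of the 7 were called lower (Lcn2, Serpina3n, Mt1, Cebpd and Fkbp5), where 2.05% of all genes were lower and 3.72% higher (64.5% of calls, or 42.8% after median-ratio scaling). From 7 d to 14 d 1 member, Serpina3n, was called lower, where 0.258% of all genes were lower and 0.376% higher. No member was called by limma or by limma-voom from 5 d to 7 d (0.449% of all genes higher, 0.208% lower), from 14 d to 21 d (0.0906% and 0.362%) or from 21 d to 28 d (0.159% and 0.0408%). In each of these 3 steps 1 member had an unadjusted limma p under 0.05: Serpina3n (0.045), Cebpb (0.020) and Fkbp5 (0.027). From 1 d to 3 d 1 of the 5 members tested, Mt1, was called higher (6.63% of all genes) and none lower (3.93% of all genes). Saa3 is described above and not counted.

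**Figure D4:**
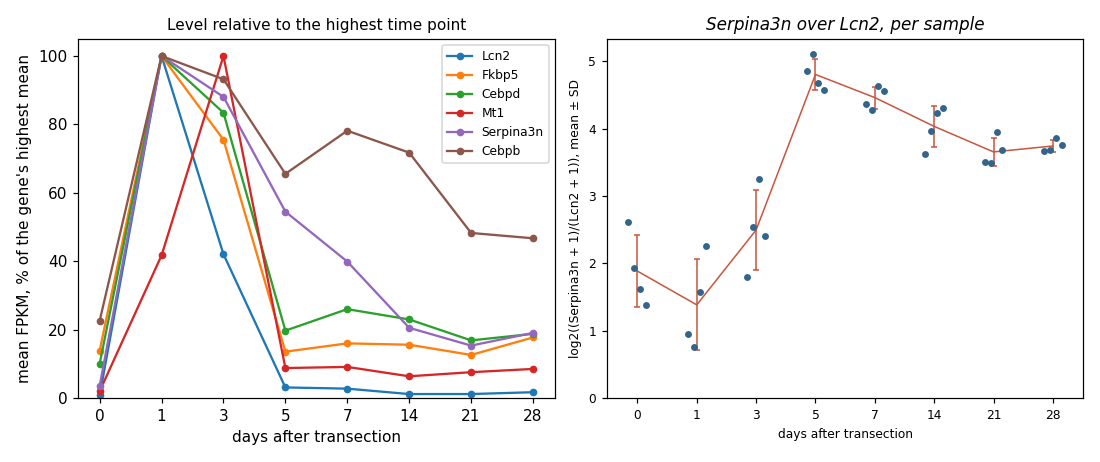
Left, the mean FPKM of 6 genes at each day as a percentage of the gene's own highest mean; right, the log2 ratio of Serpina3n to Lcn2 in each sample (each with 1 FPKM added), with mean and SD. At 5 d Lcn2 is at 3.06% and Serpina3n at 54.5% of the highest mean, and Cebpb is at 46.7% at 28 d.

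The samples of 1 d did not rank alike for all members. Sample b was the lowest of the 4 and sample d the highest for Serpina3n, Mt1, Cebpb, Cebpd and Saa3, and sample d was also the highest for Hp and Fkbp5, whereas for Lcn2 sample d was the lowest. The 12 neutrophil markers measured summed to 52.7, 9.19, 29.7 and 98.4 FPKM in 1 d samples a to d, with b the lowest and d the highest as well, against 1.33 to 2.33 FPKM at 0 d and 17.7 to 56.7 FPKM from 3 d to 28 d. Of the 8 neutrophil markers tested, 5 were called higher at 1 d and 4 at 3 d, against 6.34% and 13.2% of all genes, shares that hold for the marker counts below as well. S100a9 averaged 29.1 FPKM at 1 d and 0.900 at 0 d, while the granule genes Mpo, Elane, Ltf, Camp and Ngp stayed at or under 0.250 FPKM in every sample. The part of these cells in the members' values was not tested.

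The 8 macrophage markers summed to 125 to 180 FPKM at 0 d, 192 to 308 at 1 d and 269 to 911 at 3 d, with 4 of 8 called higher at 1 d and 8 of 8 at 3 d, and their part in the members' values was not tested either. Hepatocyte markers stayed near 0: the 6 summed to at most 1.02 FPKM in any sample, with Apoa1 at 0 in 30 samples and Alb at or under 0.642 FPKM. The 6 adipocyte markers summed to 150 to 302 FPKM at 0 d, 99.6 to 247 at 1 d and 44.5 to 217 at 3 d, where 3 of the 6 (Plin1, Retn and Cfd) were called lower. The 6 fibro-adipogenic progenitor markers summed to 438 to 582, 429 to 572 and 307 to 554 FPKM on these days, with 1 called higher at 1 d and 1 lower at 3 d. Of 6 endothelial markers 1 was higher at 1 d and 2 were lower at 3 d. Red blood cell markers had no call among 5 at 1 d or 3 d, and 3 of 6 Schwann cell markers were lower on both days, where 2.49% and 6.03% of all genes were. The 6 myofibre markers summed to 38277 to 40721 FPKM at 0 d, 32339 to 37138 at 1 d and 22610 to 26258 at 3 d, where 3 of the 6 (Ckm, Myh4 and Mylpf) were called lower, and their part in the members' values was not tested.

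Other acute-phase proteins rose in part. Counts over this and the following lists include genes that passed the filter only through samples after 0 d. For such genes the filter itself favours a rise from 0 d, and counts without them are not given. Of 24 in the list 17 passed the filter, of which 9 were called higher at 1 d and 8 at 3 d, with 1, Ptx3, lower at 3 d, where 6.34% and 13.2% of all genes were higher and 6.03% lower at 3 d, and their median change at 1 d was 0.74 log2 against 0.03 over all genes. Lrg1, a secreted leucine-rich glycoprotein, went from a mean of 9.61 FPKM at 0 d to 44.9 at 1 d (2.00 ± 0.28 log2, limma adjusted p = 1.5e-06). The orosomucoids, plasma proteins that carry small molecules, had their largest fitted change at 7 d. Orm2 was listed at 0 in the 0 d samples and averaged 1.19 FPKM at 1 d, 12.9 at 3 d and 16.6 at 7 d, and Orm1 averaged 2.25 FPKM at 0 d, 11.3 at 1 d and 18.1 at both 3 d and 7 d (2.66 ± 0.29, limma adjusted p = 1.0e-08). Orm3 averaged 0.148 FPKM at 0 d and 3.25 at 7 d.

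Among the relatives of the first 2 genes, 17 were listed and 9 tested, and 1 was called higher at 1 d and 2 at 3 d, where 6.34% and 13.2% of all genes were. Serpina3m, a neighbour of Serpina3n in the same inhibitor family, averaged 0.103 FPKM at 0 d and 5.05 at 3 d, and as a close paralogue its fragments may be split with those of its family. Apod, another lipocalin, was highest at 14 d (2.97 ± 0.39, limma adjusted p = 2.4e-07). Of 5 other C/EBP family genes 1 was called higher at 1 d, Cebpg (0.74 ± 0.06, limma adjusted p = 1.6e-10; 0.57 and under 1.5-fold after median-ratio scaling), and 1 at 3 d, Cebpz, whose largest change was 0.65 ± 0.09 at 5 d (0.30 and adjusted p = 0.059 after median-ratio scaling). After median-ratio scaling none of the 5 was called higher at 1 d or 3 d.

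Partners and receptors of the 9 gene products were called higher at 1 d in 7 of 15 cases and at 3 d in 8, where 6.34% and 13.2% of all genes were, with a median change of 0.60 log2 at 1 d (after median-ratio scaling 6 were higher at 1 d, and 7 higher and 2 lower at 3 d). Hmox1, which breaks down the haem that haptoglobin and its receptor bring in, went from 7.72 to 56.7 FPKM at 1 d (2.73 ± 0.23, limma adjusted p = 1.5e-10). Hsp90aa1, the chaperone that works with Fkbp5, rose by 1.70 ± 0.08 at 3 d (limma adjusted p = 5.0e-16). Gzmb, the protease that Serpina3n inhibits, was listed at 0 in the 0 d samples and averaged 3.09 ± 2.98 FPKM at 5 d (SD, n = 4). Tlr4, the receptor for bacterial lipopolysaccharide, had its largest change at 14 d (1.84 ± 0.09, limma adjusted p = 1.4e-15).

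Of 21 zinc handling genes tested, 1 was called higher at 1 d and 2 higher and 2 lower at 3 d, where 6.34% and 13.2% of all genes were higher and 6.03% lower at 3 d. After median-ratio scaling 1 was higher at 1 d, and 1 was higher and 2 lower at 3 d. At 5, 7, 14 and 28 d 5 were higher and at 21 d 4, or 0 to 2 on these days after median-ratio scaling, and 1 was lower on each under both scalings. Of all genes 11.8% to 15.4% were higher and 3.83% to 4.1% lower on these days. Higher at both 1 d and 3 d was Slc39a14, a zinc importer of the cell surface that acute inflammation induces in liver, which went from 1.43 FPKM at 0 d to 9.04 at 1 d and 18.4 at 3 d (2.98 ± 0.13 log2 at 3 d, limma adjusted p = 3.9e-17). Slc30a2, a zinc exporter, was lower at 28 d (-2.26 ± 0.12, limma adjusted p = 1.9e-15), and Slc39a13 and Slc39a11 were higher at 28 d and 14 d by 0.95 and 0.88, or 0.64 and 0.62 after median-ratio scaling.

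Glucocorticoid-responsive genes had the largest share called higher at 1 d of the lists, under both scalings. Of 20, all tested, 15 were called higher at 1 d and 15 at 3 d, where 6.34% and 13.2% of all genes were, none was lower on either day, and the median change was 1.21 log2 at 1 d and 0.81 at 3 d, against 0.03 and 0.06 over all genes. After median-ratio scaling 15 were higher and 1 lower at 1 d, and 11 were higher at 3 d. Ddit4, an inhibitor of the mTORC1 growth pathway, went from 7.02 to 64.3 FPKM at 1 d (2.90 ± 0.24, limma adjusted p = 1.3e-10). At 3 d Angptl4, an inhibitor of lipoprotein lipase, rose by 2.32 ± 0.33, Errfi1, an inhibitor of the EGF receptor, by 2.22 ± 0.13, and the clock gene Per1 by 2.16 ± 0.15 (limma adjusted p = 1.2e-06, 5.3e-14 and 5.3e-13). From 5 d on, 3 to 8 of the 20 were called higher and 3 or 4 lower, and after median-ratio scaling 2 to 5 were higher and 4 to 6 lower. Of all genes 11.8% to 15.4% were higher and 3.83% to 4.1% lower on these days as deposited.

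Of 18 genes of interleukin 6, interleukin 1 and STAT3 signalling, 10 were called higher at 1 d and 10 at 3 d (6.34% and 13.2% of all genes), and none lower (2.49% and 6.03%), with a median of 0.77 log2 at 1 d (9 at 1 d, and 8 with 1 lower at 3 d, after median-ratio scaling). Junb, an AP-1 transcription factor, went from 7.34 to 76.2 FPKM at 1 d (3.19 ± 0.15, limma adjusted p = 1.4e-15). Socs3, the feedback inhibitor of this pathway, rose by 2.09 ± 0.25 at 1 d, Stat3 itself by 1.76 ± 0.11 at 1 d and the kinase Pim1 by 1.94 ± 0.14 at 3 d (limma adjusted p = 1.4e-07, 1.3e-12 and 4.1e-12). The plot of lists sets these shares beside those of all genes. No list is called particular from them, since the genes were listed with earlier results of these data known.

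**Figure D5:**
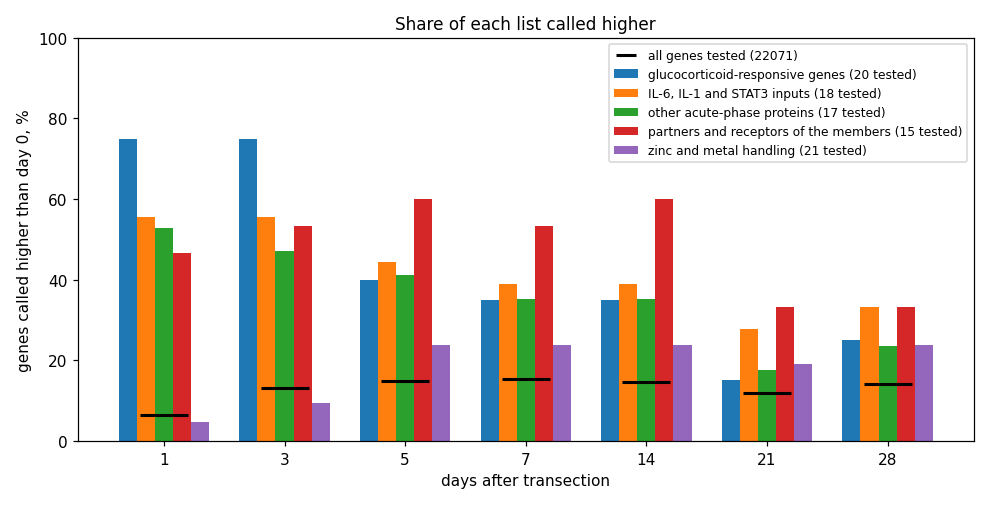
Percentage of the genes tested in each of 5 lists that were called higher than 0 d (bars, vertical axis from 0 to 100%) at each later time point (horizontal axis, days), with the percentage over all genes tested as a black line. At 1 d 15 of 20 glucocorticoid-responsive genes and 1 of 21 zinc handling genes were higher, where 6.34% of all genes were.

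Likeness of course was described by Pearson's r on log2(FPKM + 1) over the 32 samples, among 11943 genes with a mean of at least 1 FPKM. The samples share time points and libraries, so r follows the time course and is given with no test. The genes most like Lcn2 were Fkbp5, Acot2 and Zfyve1 (r = 0.97, 0.97 and 0.97), and those most like Fkbp5 were Acot2, Zfyve1 and Lcn2 (0.98, 0.98 and 0.97). Acot2, a thioesterase of mitochondrial fatty acid metabolism, averaged 9.32 FPKM in the 0 d samples, 84.6 and 71.4 at 1 d and 3 d, and 8.52 at 28 d. Most like Serpina3n were Tuba1c, Smcr8 and Zrsr2 (0.96, 0.95 and 0.94), and most like Mt1 were Gsr, Tacc2 and Zfand2a (0.97, 0.96 and 0.95). Gsr, glutathione reductase, averaged 9.03 FPKM at 0 d and 31.9 at 3 d.

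Cebpd was most like Ddit4, Btg2 and Map3k6 (0.96, 0.96 and 0.95), Cebpb most like Daxx, Errfi1 and Pprc1 (0.89, 0.89 and 0.89), Saa3 most like Zfp36, Il6ra and Nfil3 (0.93, 0.92 and 0.91) and Hp most like Lrg1, Ppp2r1b and G6pdx (0.88, 0.85 and 0.80). Nfil3, a leucine zipper transcription factor, averaged 4.10 FPKM at 0 d, 37.1 at 1 d and 7.02 at 3 d. Between members r ran from 0.53 for Mt1 with Hp to 0.97 for Lcn2 with Fkbp5, and Lcn2 with Serpina3n came to 0.74.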

How the data were processed

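The authors deposited FPKM values of 33397 genes in 32 samples. Their processing notes name CASAVA, HISAT2 2.1.0 and GRCm38, and the study gives 150-bp paired-end reads; the counter and annotation are not given in the sources used here. FPKM multiplied by the merged exon lengths of GENCODE M21 gave whole fragments, within 0.02, for 99.3% of values below 200 fragments, from which depth was taken; intervals cover counting error only. A count model was used only as an alternative. Gene symbols matched for 33356 genes. The members and lists were chosen with earlier results of these data known.

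Genes reaching 0.1 FPKM in 4 or more samples (22071) were kept, and log2(FPKM + 1) was fitted over all 32 samples in 8 groups by limma 3.58.1 (lmFit, then eBayes with trend; R 4.3.3), with Benjamini-Hochberg adjustment over all of them. Such fold changes understate the change of low genes. On simulated data for 1 d against 0 d (13157 genes, 200 changed 2-fold), 197 were recovered with 1 false call. The simulation changed only genes well above the filter and gave every group the spread of the 0 d samples. It therefore does not cover genes as low as Lcn2 and Saa3 at 0 d, or the wider spread at 1 d. Other steps used Python 3.11.15 with scipy 1.17.1, pandas 2.3.3 and numpy 2.4.6, and figures matplotlib 3.10.9. Genes named were the 9 members, up to 4 called genes of each list with the largest change at any time point, the leading markers, and the 3 genes most like each member. Neighbours sharing exons, Saa3 intervals and the remaining genes were looked up afterwards. Alternatives covered the pseudocount, filter, scaling, samples in the fit, limma-voom on recovered fragments, and leaving out each sample. The numbers and letters of the columns are tied to no sample label, so no block was fitted.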

Additional observations from a re-analysis of the deposited data

Results flagged for a closer look

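Dixon's criterion was applied to 64 sets of 4 samples (8 genes by 8 days), and in 6 of them 1 sample stood away from its group, which chance gives in about 1 of 20 groups. At 0 d Serpina3n was 6.76 FPKM in sample 1 against 2.75 to 3.28 in the others, and Saa3 was 0.0514 FPKM (2 fragments) in sample 2 against 0 in the others, where any value above 0 meets the criterion. Mt1 was 50.7 FPKM in 7 d sample a against 32.5 to 33.9, and 50.5 FPKM in 28 d sample a against 29.0 to 31.6. Cebpd was 6.31 FPKM in 14 d sample a against 8.07 to 8.37, and Hp was 21.7 FPKM in 7 d sample b against 48.3 to 52.2.

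The change from 0 d at 28 d minus that at 3 d is the contrast of 28 d with 3 d already given, and adds no separate test. It was past the limma threshold at -3.36 log2 for Lcn2, -2.11 for Serpina3n, -3.51 for Mt1, -0.98 for Cebpb, -2.01 for Cebpd and -1.79 for Fkbp5. Saa3 (-0.61) was past it too, but it passed the filter through its high groups and fell short of the threshold when any 1 of 5 samples was left out (28 d samples a, b and d, 3 d samples b and c).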

How the results depend on the processing

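No paired analysis was possible because the columns carry no replicate numbers that match the labels, so the planned replicate block was not run; the ratio of Mt2 to Mt1 was not run either, as Mt2 is at 0. Every count of members called (Saa3 included) stayed within 1.5 times of its value under each scaling, filter, pseudocount and fit tried. That bound is loose enough to pass the loss of the Cebpd call at 5, 21 and 28 d after median-ratio scaling. Leaving out 1 sample gave 0 to 1 members called from 7 d to 14 d and a log2 ratio of Serpina3n to Lcn2 that was 1.01 to 1.501 higher at 28 d than at 3 d. Uncalled changes that turned direction were those of Fkbp5 from 0 d, at -0.15, -0.17 and -0.0129 after median-ratio scaling and -0.15, -0.18 and -0.0205 after quantile normalization for 7, 14 and 28 d, and that of Hp at 21 d (-0.19 and -0.12). With single samples left out, Fkbp5 ranged from -0.0742 to 0.0812 at 5 d and from -0.15 to 0.00616 at 21 d, Hp from -0.12 to 0.42 at 21 d, and the step from 1 d to 3 d from -0.94 to 0.0899 for Hp, -0.37 to 0.0357 for Serpina3n, -0.25 to 0.24 for Cebpb and -0.38 to 0.0875 for Cebpd; the cause was not tested. Hp was called at 5 d and 7 d when only the 2 time points compared were fitted, and lost its 3 d call after quantile normalization (1.39, adjusted p = 0.063). Over all genes, 1950 were called at 1 d, 3621 with a pseudocount of 0.1 and 3626 with limma-voom (4254, 6847 and 6966 at 3 d; 4148, 6934 and 7075 at 5 d; 4308, 7267 and 7368 at 7 d; 4075, 7138 and 7317 at 14 d; 3466, 6057 and 6158 at 21 d; 4049, 7277 and 7375 at 28 d). Depth limits Lcn2 and Saa3 at 0 d, where 3 fragments are 0.072 to 0.077 FPKM.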
